A study of Homo sapiens with 6 samples.

Results

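The genes of the mitochondrial ribosomal proteins were followed in CAL-27 cells grown as spheres, using every row of the deposited expression table whose symbol begins with MRPL or MRPS and a number. The rule found 78 genes of 17280, of which 49 carry an MRPL symbol (large subunit) and 29 an MRPS symbol (small subunit). CAL-27 is an established line of human tongue squamous cell carcinoma, and sphere culture is a floating culture used to enrich stem-like tumour cells. RNA was sequenced in 6 libraries. The LF3 group has 3 libraries of sphere cells exposed for 24 h to LF3, a small molecule described as an inhibitor of the beta-catenin and TCF4 interaction in Wnt signalling. The CON group has 3 control libraries of the same sphere cells, and no vehicle is named for it. The titles and the series design name LF3, whereas the treatment field of the same 3 libraries names elesclomol-Cu, a copper ionophore given with copper. Groups here follow the titles. Which of the agents the cells received is not settled by the labels and was not tested here. Replicates are not stated to be separate cultures, and all come from a single line, so the p-values describe spread among libraries that may be technical.

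Mitochondria keep their own ribosome, which makes only the few membrane proteins of the respiratory chain and ATP synthase that mitochondrial DNA encodes. Its RNAs come from that DNA, while all of its proteins are encoded in the nucleus, made in the cytosol and imported. Part of these proteins have counterparts in bacterial ribosomes, and others were added during the evolution of mitochondria. What it makes is assembled with respiratory subunits made in the cytosol. Many of the promoters of its protein genes are known to carry sites for the ETS factor GABP (also called NRF2) and for YY1.

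Promoters of 8 members are shown, taken from both ends of the response described below and chosen with the fold changes known. MRPL20, MRPL47, MRPS10 and MRPS12 were among the most raised members and carry both an ETS and a YY1 core, and MRPL12 was strongly raised with neither. MRPL52 carries both cores with a small rise, MRPL48 was among the least raised with an ETS core, and MRPS6 was lower in LF3 with neither. Each runs 5′ to 3′ from 250 bases before to 50 bases after the gene's first listed start, from RefSeq on GRCh38.p14. Capitals mark the ETS core CCGGAAG and the YY1 core AAGATGGC, searched on both strands, so that CTTCCGG and GCCATCTT are their reverse complements.
MRPL20 (chr1:1407244-1407543, minus strand): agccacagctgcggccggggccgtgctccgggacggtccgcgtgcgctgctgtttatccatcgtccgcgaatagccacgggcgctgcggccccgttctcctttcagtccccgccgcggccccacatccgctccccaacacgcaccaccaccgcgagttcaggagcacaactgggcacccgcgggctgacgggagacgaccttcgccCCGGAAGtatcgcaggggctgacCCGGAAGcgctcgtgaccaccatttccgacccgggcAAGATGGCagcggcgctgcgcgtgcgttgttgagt
MRPL47 (chr3:179604589-179604888, minus strand): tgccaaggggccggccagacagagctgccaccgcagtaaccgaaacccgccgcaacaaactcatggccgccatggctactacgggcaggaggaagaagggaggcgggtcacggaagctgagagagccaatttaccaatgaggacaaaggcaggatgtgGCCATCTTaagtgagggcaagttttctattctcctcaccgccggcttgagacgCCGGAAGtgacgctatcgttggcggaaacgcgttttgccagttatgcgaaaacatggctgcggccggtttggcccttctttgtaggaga
MRPS10 (chr6:42217812-42218111, minus strand): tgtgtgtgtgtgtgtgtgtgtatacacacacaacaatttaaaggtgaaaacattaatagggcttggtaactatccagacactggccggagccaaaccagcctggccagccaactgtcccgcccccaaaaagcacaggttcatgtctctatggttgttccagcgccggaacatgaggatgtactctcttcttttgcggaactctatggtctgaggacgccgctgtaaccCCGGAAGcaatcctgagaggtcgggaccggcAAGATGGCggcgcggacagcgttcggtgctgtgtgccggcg
MRPS12 (chr19:38930694-38930993, plus strand): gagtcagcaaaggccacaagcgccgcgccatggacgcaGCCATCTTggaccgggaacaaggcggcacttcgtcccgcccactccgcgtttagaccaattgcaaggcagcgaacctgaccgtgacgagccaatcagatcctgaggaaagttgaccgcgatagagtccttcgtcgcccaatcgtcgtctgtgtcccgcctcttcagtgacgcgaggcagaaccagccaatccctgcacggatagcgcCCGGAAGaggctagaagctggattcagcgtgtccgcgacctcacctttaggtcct
MRPL12 (chr17:81703117-81703416, plus strand): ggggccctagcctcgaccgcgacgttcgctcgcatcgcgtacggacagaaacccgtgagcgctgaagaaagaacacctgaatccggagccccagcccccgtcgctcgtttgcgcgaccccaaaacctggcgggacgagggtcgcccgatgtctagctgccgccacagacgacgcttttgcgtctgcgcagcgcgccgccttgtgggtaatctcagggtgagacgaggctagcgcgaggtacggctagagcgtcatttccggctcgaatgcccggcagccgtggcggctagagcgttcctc
MRPL52 (chr14:22829637-22829936, plus strand): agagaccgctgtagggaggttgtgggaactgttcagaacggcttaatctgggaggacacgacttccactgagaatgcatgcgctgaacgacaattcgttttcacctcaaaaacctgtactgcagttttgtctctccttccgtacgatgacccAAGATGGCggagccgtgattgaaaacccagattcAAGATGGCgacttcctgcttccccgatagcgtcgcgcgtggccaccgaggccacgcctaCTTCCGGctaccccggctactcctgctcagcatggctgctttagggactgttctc
MRPL48 (chr11:73787624-73787923, plus strand): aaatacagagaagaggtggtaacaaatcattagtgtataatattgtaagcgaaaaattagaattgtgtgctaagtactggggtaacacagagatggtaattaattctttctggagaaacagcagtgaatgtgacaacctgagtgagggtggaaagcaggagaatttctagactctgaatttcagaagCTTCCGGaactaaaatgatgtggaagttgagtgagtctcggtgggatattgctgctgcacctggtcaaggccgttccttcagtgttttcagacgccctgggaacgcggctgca
MRPS6 (chr21:34073328-34073627, plus strand): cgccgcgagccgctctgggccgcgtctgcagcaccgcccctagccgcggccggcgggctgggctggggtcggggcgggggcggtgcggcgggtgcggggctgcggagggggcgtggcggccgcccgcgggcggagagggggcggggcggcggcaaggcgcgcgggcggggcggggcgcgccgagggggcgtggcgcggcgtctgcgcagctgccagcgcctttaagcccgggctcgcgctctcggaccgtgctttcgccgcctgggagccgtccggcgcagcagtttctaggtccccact

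The gene identifiers and symbols of 77 of the 78 members matched RefSeq, and a promoter was listed for 69. The ETS core stood in 29 of these 69 promoters (42%), against 19.6% of the 9909 promoters of all tested genes. The YY1 core stood in 20 (29%), against 5.48% of all tested genes' promoters. Either core was present in 41 members (59.4%), against 23.7%, and both in 8, with no overlap between a pair of matches in any member. The log2 fold changes of these 8 were 0.55 in MRPL52 and 0.90 in MRPL51, both below the members' median, and lay between 1.61 and 2.56 in the others. The share of all tested genes' promoters with both cores is not given here. Whether carrying both cores goes with a larger change was not tested. The palindromic E-box CACGTG was found in 6 member promoters (8.7%, against 10.3%) and the palindromic NRF1 motif of 10 letters in 1, that of MRPL17 (1.45%, against 2.31%). A shorter NRF1 core, GCGCATGC, was added after the longer one had been counted, and it stood in 6 (8.7%, against 5.52%), so the NRF1 share lay below or above that of all promoters depending on the letters searched. These are letter matches in a fixed window, not measured binding. The median log2 fold change was 0.99 in the 41 members with an ETS or YY1 core, ranging between 0.16 and 2.56, and 0.95 in the 28 members with neither, ranging between -0.15 and 2.51. The ranges of the 2 sets of members covered nearly the same span. MRPL10, at -0.63, had no listed promoter and stands in neither set.

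RNA of most genes for mitochondrial ribosomal proteins was higher in LF3, across both subunits. Values are TPM, a length-corrected share of each library's RNA; the unit does not keep read numbers, and the depth is unknown. A log2 fold change is the difference of mean log2(TPM + 1), LF3 less CON, and stands beside its limma standard error after ±. Adjustment (Benjamini-Hochberg) ran over the 12195 genes that averaged 1 TPM or more. All 78 members passed that filter. At an adjusted p under 0.05, 76 rose and 2 fell, MRPL10 and MRPS6. Among all tested genes 53.2% were called higher and 32.3% lower, 85.5% in all, so a call as such was common in these data. The MRPL genes gave 48 higher and 1 lower, and the MRPS genes 28 higher and 1 lower. At least a 2-fold rise was found in 38 members, 23 MRPL and 15 MRPS, against 20.8% of all tested genes. Every LF3 library lay above every CON library in 75 members (53.5% of all tested genes) and below in 2 (32.7%), and only MRPL53 overlapped.

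The median log2 fold change was 0.98 over the 78 members, 0.98 over MRPL genes and 1.03 over MRPS genes, beside 0.24 over all tested genes, and 73 members lay above that overall median. When each library was divided by the median of its ratios to the genes' geometric means (median-ratio scaling), the overall median became -0.0055, 42.6% of tested genes were higher and 42.7% lower, and the members' median was 0.71 with 69 higher and 2 lower. After quantile normalization, 43.9% of tested genes were higher and 41.5% lower, and the members' median was 0.68 with 67 higher and 3 lower. The share of all called genes that were higher was 62.2% as deposited, 50% after median-ratio scaling and 51.4% after quantile normalization. Because this is bulk RNA, a change in the make-up of the cells and a change of RNA per cell cannot be told apart.

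**Figure D1:**
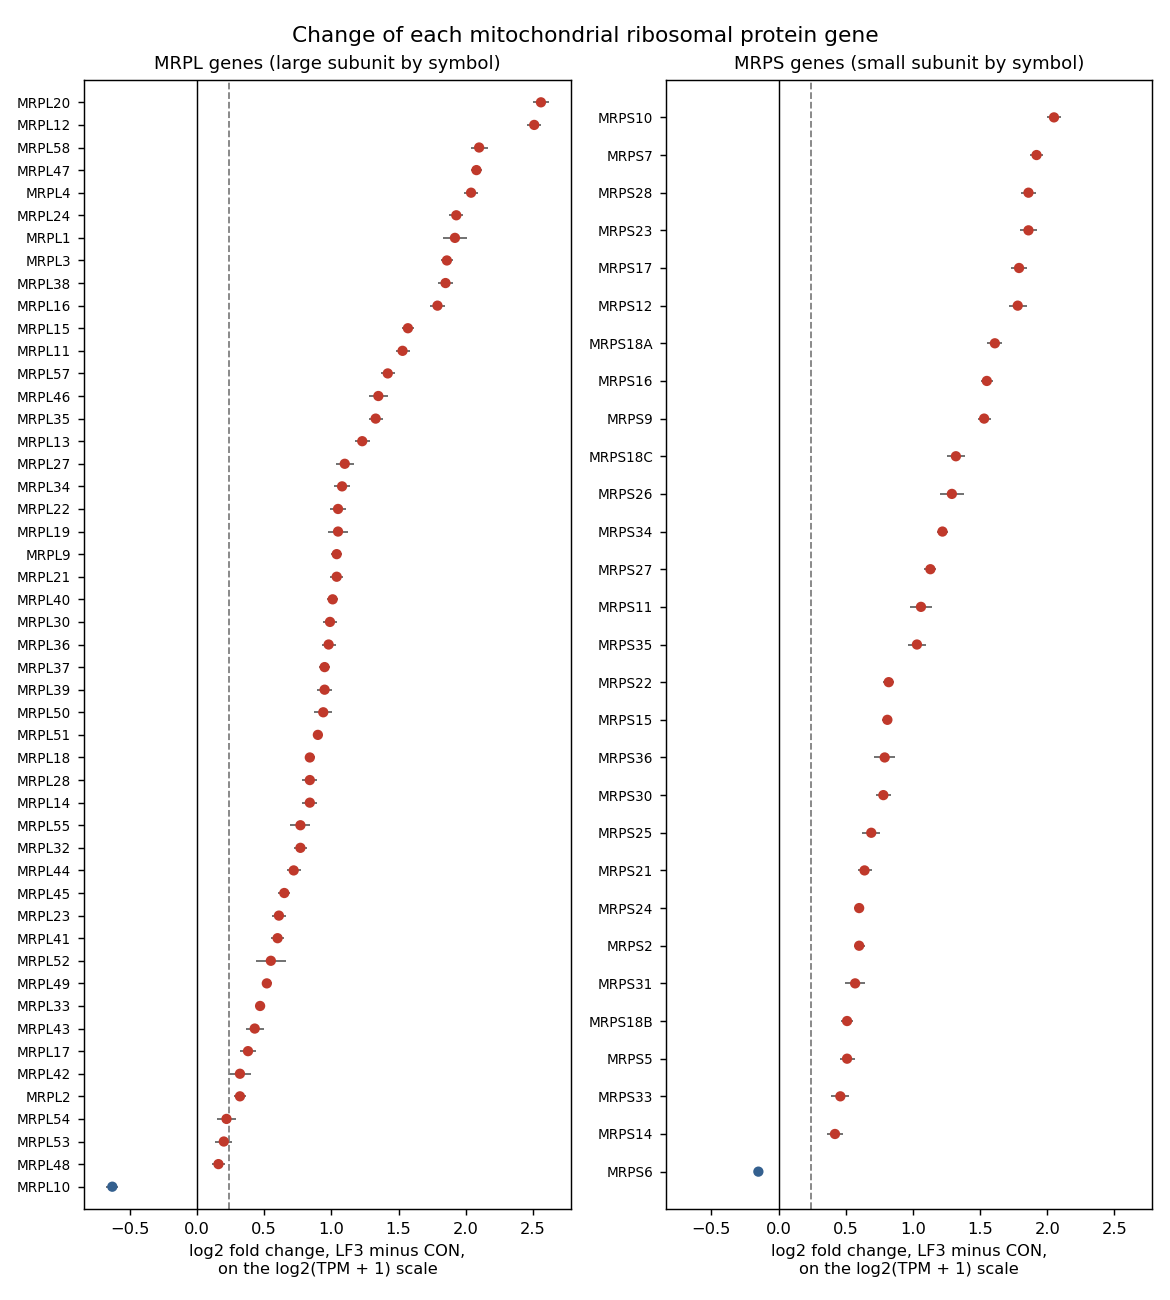
Log2 fold change of each of the 78 genes (LF3 minus CON, log2(TPM + 1) scale), sorted within the MRPL and MRPS symbols, with bars for the limma standard error; red points were called higher and blue points lower. The dashed line is the median of all tested genes, 0.24; MRPL10 and MRPS6 stand alone left of 0.

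Summed over the family, the LF3 libraries held 9750, 9703 and 9903 TPM of mitochondrial ribosomal protein RNA, against 5066, 5001 and 5166 TPM in the CON libraries. The groups were far apart, with means of 9785 ± 105 TPM in LF3 and 5078 ± 83.1 TPM in CON (SD, n = 3 each), that is 0.978% and 0.508% of each library. The ratio of means was 1.93, and 1.59 after median-ratio scaling. MRPL genes held 6518 ± 89.7 TPM in LF3 and 3292 ± 61.6 TPM in CON, and MRPS genes 3267 ± 15.6 TPM in LF3 and 1785 ± 22.2 TPM in CON. The summed large-to-small ratio was 1.99 ± 0.0153 in LF3 and 1.84 ± 0.0115 in CON. MRPS24 alone held 871 ± 13.2 TPM of the MRPS sum in LF3 and 574 ± 23 TPM in CON, so this ratio leans on that gene. The median log2 fold change was not lower for MRPS genes (1.03) than for MRPL genes (0.98), so the ratio does not describe the subunits as a whole.

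The levels of the members also lay closer together in LF3. The median member stood at 94.6 ± 2 TPM in LF3 and 36.8 ± 0.173 TPM in CON. The ratio of the 90th to the 10th percentile of member TPM was 7.81 ± 0.34 in LF3 and 9.11 ± 0.618 in CON. The SD of log2 TPM across members was 1.2 ± 0.0208 in LF3 and 1.31 ± 0.03 in CON. When members were ordered by mean TPM over all libraries, the median log2 fold change was 1.05 in the lowest 26, 1.16 in the middle 26 and 0.83 in the highest 26, which held 14, 17 and 7 members with a rise of at least 2-fold. The mean TPM also enters the fold change, so this is a description only.

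MRPS24, a small-subunit protein with a bacterial counterpart, was the most abundant member in all 6 libraries. It stood at 874.47, 856.08 and 881.71 TPM in LF3 and at 564.99, 557.27 and 600.48 TPM in CON, a log2 fold change of 0.60 ± 0.035 (adjusted p = 2.74e-08, limma). At the other end, MRPL42 was the lowest member of all LF3 libraries, at 11.14, 10.67 and 9.95 TPM, whereas MRPL1 or MRPS23 was lowest in CON, at 4.9, 5.49 and 5.05 TPM. MRPL1, whose bacterial counterpart forms the L1 stalk near the tRNA exit site, reached 23.2 ± 1.06 TPM in LF3, against 5.44 ± 0.815 TPM in CON. The lowest member was thus a different gene in LF3 than in CON.

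**Figure D2:**
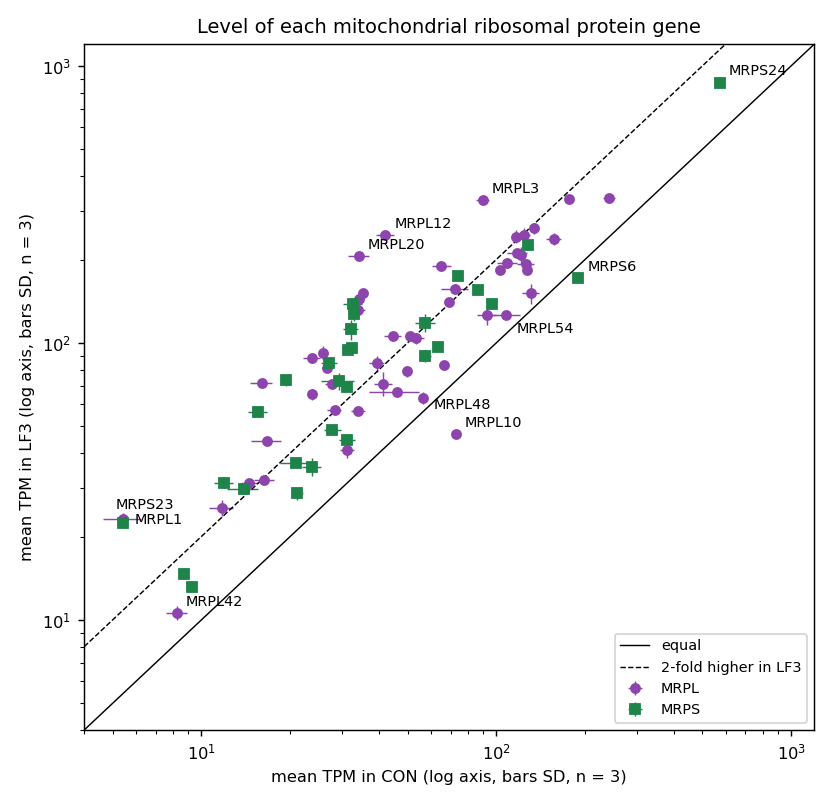
Mean TPM of each member in LF3 (vertical) against CON (horizontal), both axes logarithmic, with bars for the SD of 3 libraries; circles are MRPL and squares MRPS genes. Nearly all points lie above the line of equality, MRPL10 and MRPS6 lie below it, and MRPL20 and MRPL12 lie farthest above the dashed line of a 2-fold rise.

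Replicates were close for these genes. The coefficient of variation of a member's TPM had a median of 3.92% in LF3, where MRPL55 was the highest at 9.96%, and of 5.31% in CON, where MRPL52 was the highest at 19.1% and 8 members exceeded 10%. Across the members, Pearson correlations of log2(TPM + 1) were 0.997 to 0.998 between LF3 libraries, 0.994 to 0.996 between CON libraries and 0.865 to 0.877 between libraries of different groups, as a description over genes that share those libraries. Of 8 tested squamous markers 5 were higher in LF3 (62.5%, against 53.2% of all tested genes) and 1 lower. The counts were 3 and 4 after median-ratio scaling and 2 and 5 after quantile normalization. The squamous markers summed to 1756 to 1795 TPM in LF3 and 1254 to 1278 TPM in CON, and KRT14 stood under 1 TPM in both groups. That sum hides opposite changes. KRT5 had 454 ± 6.66 TPM in LF3 and 102 ± 3.43 TPM in CON (2.15 ± 0.036), and SFN stood at 0.84 ± 0.04. KRT17 fell to 58.8 ± 0.706 TPM in LF3, against 200 ± 8.66 TPM in CON (-1.75 ± 0.042). Of the markers of blood, vessel, stromal and nerve cells 13 were in the table and summed to 11.9 to 14 TPM in LF3 and 25.2 to 27.6 TPM in CON, with PTPRC, HBB and DCN listed at 0 in every LF3 library. The part of either marker list in the change of the ribosomal genes was not tested.

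Large-subunit members with the highest fold changes came from several places on the subunit. MRPL20, the counterpart of a bacterial protein that binds ribosomal RNA early in assembly, had 197.15, 211.19 and 210.27 TPM in LF3 and 34.47, 31.38 and 36.82 TPM in CON. The lowest LF3 library exceeded the highest CON library more than 5-fold, and the log2 fold change was 2.56 ± 0.058 (adjusted p = 2.47e-11, limma). MRPL12, the stalk protein that meets translation factors and that also binds the mitochondrial RNA polymerase, had 247.65, 238.58 and 248.42 TPM in LF3 and 40.29, 40.46 and 45.6 TPM in CON. Its groups did not overlap either, and the log2 fold change was 2.51 ± 0.052 (adjusted p = 1.24e-11, limma).

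MRPL58, a peptidyl-tRNA hydrolase built into the ribosome that can release stalled chains, had 73.18, 68.67 and 73.73 TPM in LF3 and 14.5, 17.09 and 16.35 TPM in CON (log2 fold change 2.10 ± 0.064). MRPL47 lies at the rim of the tunnel through which the new chain leaves, and it had 153.48, 154.18 and 148.85 TPM in LF3 and 35.45, 35.61 and 34.61 TPM in CON (2.08 ± 0.04). The CON values of MRPL47 spread by only about 1 TPM, and the groups of both genes were widely separated. MRPL4, whose bacterial counterpart lines the tunnel, averaged 144 ± 8.9 TPM in LF3 and 34.2 ± 0.356 TPM in CON (2.04 ± 0.05), and MRPL24, another tunnel-rim protein, 131 ± 5.32 TPM in LF3 and 33.9 ± 1.88 TPM in CON (1.93 ± 0.052).

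Among small-subunit genes, MRPS10 had the highest fold change. MRPS10, a protein of the subunit's head, had 134.11, 142.3 and 136.6 TPM in LF3 and 30.92, 35.22 and 31.57 TPM in CON, a log2 fold change of 2.05 ± 0.054 (adjusted p = 7.11e-11, limma). MRPS7, whose bacterial counterpart starts the folding of the head, had 125.68, 121.71 and 134.77 TPM in LF3 and 32.5, 33.37 and 32.8 TPM in CON (1.92 ± 0.048). Both genes showed LF3 values more than 3 times the highest CON value. MRPS12, which belongs to the decoding centre and is the counterpart of the bacterial protein altered in streptomycin resistance, had 116.84, 101.76 and 118.83 TPM in LF3 and 30, 32.75 and 33.59 TPM in CON (1.78 ± 0.066). The other members among the highest of this subunit were MRPS28 at 1.86 ± 0.053, MRPS23 at 1.86 ± 0.062 and MRPS17 at 1.79 ± 0.061 on the log2 scale.

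The exceptions were few. MRPL10 anchors the copies of MRPL12 at the base of the stalk, and its RNA fell while that of MRPL12 rose. It had 48.59, 45.65 and 46.2 TPM in LF3 and 73.53, 70.37 and 74.54 TPM in CON, with every LF3 library below every CON library, and a log2 fold change of -0.63 ± 0.046 (adjusted p = 1.91e-07, limma). After median-ratio and quantile scaling the change was -0.90 and -0.97. The ratio of MRPL12 to MRPL10 TPM was 5.1, 5.23 and 5.38 in the LF3 libraries and 0.548, 0.575 and 0.612 in the CON libraries, so the more abundant of the pair was MRPL12 in LF3 and MRPL10 in CON.

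MRPS6, the counterpart of a bacterial protein of the small subunit's platform, had 172.33, 170.68 and 169.9 TPM in LF3 and 187.71, 190.38 and 190.89 TPM in CON. The difference was small but exceeded a spread of about 1% within either group, at -0.15 ± 0.032 (adjusted p = 0.0013, limma), and it was -0.42 and -0.41 after median-ratio and quantile scaling. In the GENCODE v29 annotation 17.8% of the exon bases of MRPS6 are shared on the same strand with SLC5A3, which encodes a myo-inositol transporter. SLC5A3 averaged 20.6 ± 2.9 TPM in LF3 and 57 ± 4.65 TPM in CON (-1.43 ± 0.095), and its part in the value of MRPS6 was not tested.

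Several large-subunit members rose so little that their direction depended on the scaling. MRPL48, a protein of the central protuberance, had 61.48, 67.09 and 61.43 TPM in LF3 and 57.75, 55.51 and 55.78 TPM in CON, with no overlap, and its log2 fold change of 0.16 ± 0.048 (adjusted p = 0.00818, limma) became -0.10 after median-ratio scaling and -0.20 after quantile normalization, the last called lower (adjusted p = 0.00211). MRPL53 and MRPL54, which lie near the stalk base, stood at 0.20 ± 0.063 and 0.22 ± 0.073 as deposited, at -0.068 and -0.049 after median-ratio scaling and at -0.097 and -0.089 after quantile normalization, where neither was called. MRPL53 had 138.3, 151.77 and 163.06 TPM in LF3 and 128.78, 123.7 and 140.2 TPM in CON, so that its lowest LF3 library lay below the highest CON library.

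MRPL2, which lies by the catalytic centre, rose by 0.32 ± 0.042 as deposited but was at 0.049 and -0.0081 after median-ratio and quantile scaling, with no call in either. MRPL42 (0.32 ± 0.079), MRPL43 (0.43 ± 0.067) and MRPL17 (0.38 ± 0.061) also lost their calls under both scalings, and MRPL52 (0.55 ± 0.11) and MRPS14 (0.42 ± 0.059) only after quantile normalization. The least raised MRPS genes other than MRPS14 were MRPS33 at 0.46 ± 0.066, MRPS5 at 0.51 ± 0.056, MRPS18B at 0.51 ± 0.042 and MRPS31 at 0.57 ± 0.072, and these 4 stayed called higher under both scalings.

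**Figure D3:**
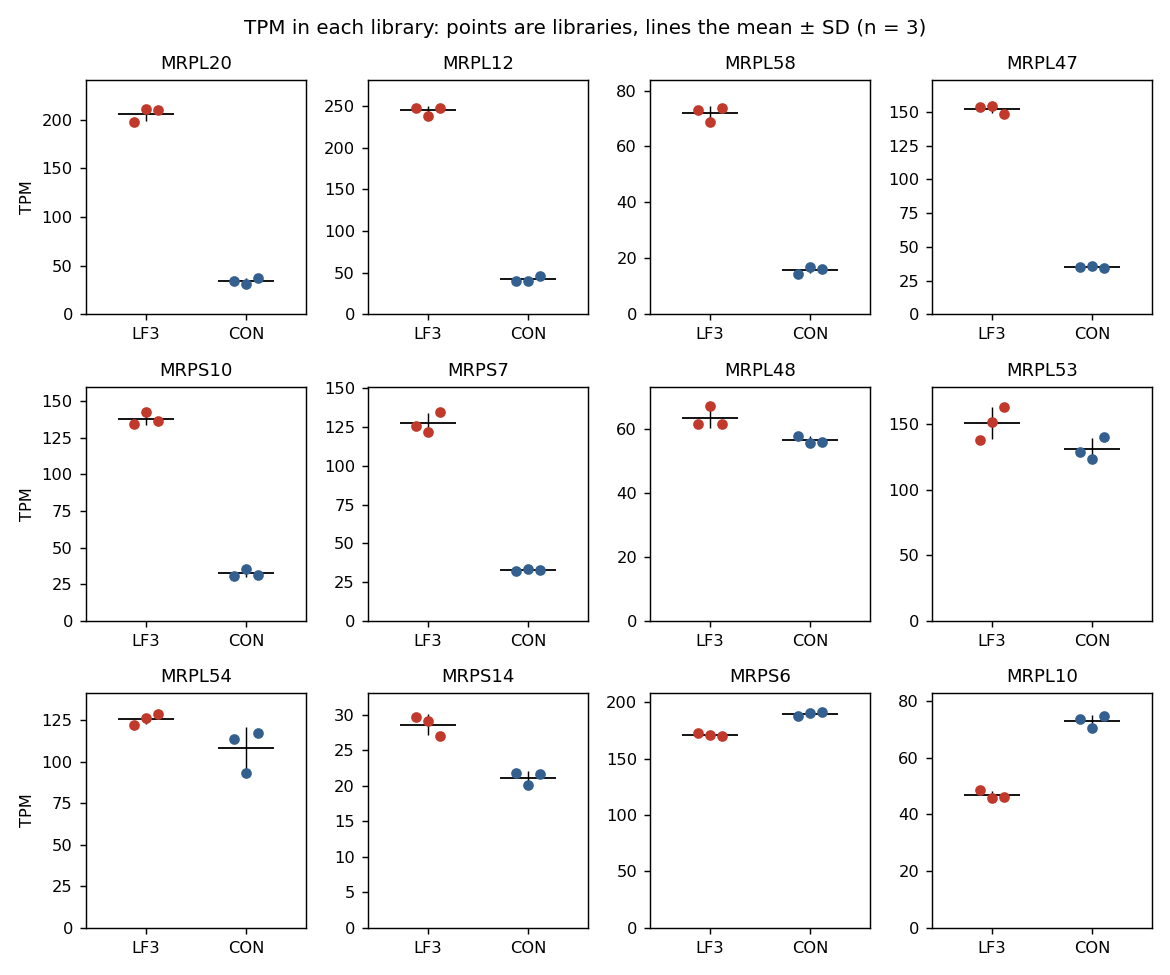
TPM in each library for 12 members, LF3 left and CON right in each panel; points are libraries and lines the mean ± SD of 3. The first 6 panels hold members with rises of about 4-fold or more, where no library comes near the other group. The last 6 hold members with small rises (MRPL48, MRPL53, MRPL54 and MRPS14) and the 2 that fell.

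Of the places in the ribosome listed here, the stalk was the most mixed, though it holds few genes. Its 5 members gave 4 higher and 1 lower, with MRPL12 at 2.51, MRPL11 (part of the stalk base, bound to ribosomal RNA) at 1.53 ± 0.052, MRPL54 at 0.22, MRPL53 at 0.20 and MRPL10 at -0.63, a median of 0.22. As deposited that is 80% higher, against 53.2% of all tested genes. With the libraries rescaled, 2 were higher and 1 lower under either scaling. That is 40% higher, close to the 42.6% of all tested genes after median-ratio scaling and the 43.9% after quantile normalization. The 7 members of the central protuberance were all called higher as deposited, with a median of 1.10, led by MRPL58 and by MRPL38 (87.9 ± 3.11 TPM in LF3 and 23.7 ± 1.51 TPM in CON, 1.85 ± 0.056), and 6 stayed higher under each scaling, the exception being MRPL48. The 7 members at the rim of the exit tunnel were all higher with a median of 0.95, and 6 under each scaling, the exception being MRPL17. Among them MRPL45, which ties the ribosome to the inner membrane, stood at 78.9 ± 3.6 TPM in LF3 and 49.8 ± 0.857 TPM in CON (0.65 ± 0.046).

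Most genes rose both among proteins kept at their bacterial place and among proteins added or moved in mitochondria. The second kind includes MRPS18A and MRPS18B, which are related to a bacterial protein but sit at new sites, and MRPL55 and MRPS36 stand in neither list. Of the 29 large-subunit members of the first kind 28 were higher and 1 lower, with a median of 1.05, and of the 21 of the second kind 21 were higher, with a median of 0.78 (16 after median-ratio scaling, and 15 with 1 lower after quantile normalization). In the small subunit 15 of 16 members of the first kind were higher and 1 lower, with a median of 1.19, and 10 of 10 of the second kind were higher, with a median of 0.92. Whether the kinds differ was not tested. MRPL44, which has a ribonuclease III-like fold, averaged 56.7 ± 1.72 TPM in LF3 and 34 ± 1.77 TPM in CON (0.72 ± 0.052).

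Some symbols do not give the place of the protein. MRPS30 and MRPS18A sit in the large subunit despite their names, and they stood at 0.78 ± 0.058 and 1.61 ± 0.056 on the log2 scale. MRPS36 is now known as a component of the 2-oxoglutarate dehydrogenase complex and not of the ribosome, and it had 35.54, 38.11 and 36.38 TPM in LF3 and 23.12, 21.36 and 18.28 TPM in CON (0.79 ± 0.078), with no overlap. The 3 MRPS18 paralogs, all related to the same bacterial protein, had log2 fold changes of 1.61 for MRPS18A, 1.32 ± 0.066 for MRPS18C and 0.51 ± 0.042 for MRPS18B. MRPS16 and MRPS22, in which mutations cause mitochondrial disease in humans, stood at 1.55 ± 0.046 and 0.82 ± 0.041.

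The 5 ribosomal proteins without an MRP symbol were also higher, 5 of 5 as deposited and under both scalings. DAP3, a GTP-binding protein of the small subunit first named for its role in cell death, had 237.58, 232.41 and 230.4 TPM in LF3 and 97.52, 100.95 and 100.76 TPM in CON (1.22 ± 0.035). AURKAIP1 stood at 1.14 ± 0.052, CHCHD1 at 0.79 ± 0.045, GADD45GIP1 at 0.78 ± 0.058 and PTCD3 at 0.65 ± 0.075. Counted by place, the large subunit then had 51 higher and 1 lower of 52 and the small subunit 29 higher and 1 lower of 30.

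Factors that assemble and serve the mitochondrial ribosome were mostly higher too, beside 53.2% higher and 32.3% lower among all tested genes. Of 29 assembly factors 27 were higher and 0 lower, with a median of 1.24 (25 and 2 after median-ratio scaling, 24 and 3 after quantile normalization), and NOA1 and YBEY were the 2 not called as deposited. The helicase gene DDX28 stood at 13.3 ± 0.752 TPM in LF3 and 1.27 ± 0.346 TPM in CON (2.66 ± 0.11), the ribosomal RNA methyltransferase gene MRM2 at 134 ± 2.97 TPM in LF3 and 24.6 ± 1.02 TPM in CON (2.40 ± 0.046), and the GTPase gene MTG1 at 2.22 ± 0.066 on the log2 scale. Of 17 translation factors and activators 16 were higher and 1 lower, with a median of 1.02 (16 and 1, then 15 and 1, under the scalings). They were led by PDF, which removes the formyl group of new chains, at 12.8 ± 1.2 TPM in LF3 and 1.42 ± 0.63 TPM in CON (2.54 ± 0.16). Next was the elongation factor gene GFM1, at 116 ± 5.31 TPM in LF3 and 20.1 ± 1.52 TPM in CON (2.47 ± 0.061). The initiation factor gene MTIF3 was the one that fell, at -0.38 ± 0.066.

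Supply of tRNA and of mitochondrial RNA showed the same direction for most genes, beside 53.2% higher among all tested genes. Of 20 genes for mitochondrial aminoacyl-tRNA synthesis 18 were higher and 0 lower, with a median of 1.03 (18 and 2, then 17 and 2, under the scalings), among them MARS2 for methionine at 2.10 ± 0.11 and FARS2 for phenylalanine at 1.58 ± 0.078. Of 14 tRNA processing genes 12 were higher and 0 lower, with a median of 0.77 (12 and 0, then 12 and 2), led by ELAC2, which cuts the 3′ end, at 2.80 ± 0.063 and by TRMT10C, a subunit of mitochondrial RNase P, at 2.33 ± 0.081. Of 14 genes for transcription and replication of mitochondrial DNA 10 were higher (71.4%, against 53.2% of all tested genes) and 1 lower, with a median of 0.97. Under both scalings 8 were higher and 5 lower. That is 57.1% higher, against 42.6% of all tested genes after median-ratio scaling and 43.9% after quantile normalization. The helicase gene TWNK stood at 2.38 ± 0.098, the single-strand binding protein gene SSBP1 at 1.91 ± 0.032 and the DNA packaging factor gene TFAM at 1.71 ± 0.09, whereas POLG, the polymerase that copies that DNA, fell to 22.8 ± 1.15 TPM in LF3, against 37.3 ± 2.35 TPM in CON (-0.68 ± 0.062). Of 26 symbols searched for RNAs encoded by mitochondrial DNA, 0 were in the deposited table, so these RNAs could not be compared under those symbols.

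The nuclear partners of the proteins this ribosome makes had a lower median change than the members. Of 72 nuclear subunits of complexes I, III, IV and V 60 were higher (83.3%, against 53.2% of all tested genes) and 2 lower, with a median of 0.57. The counts were 52 and 16 after median-ratio scaling and 55 and 8 after quantile normalization. The largest changes on that list were those of NDUFS6 of complex I at 1.54 ± 0.035 and of ATP5MC1 and ATP5MC3, which encode the same ring subunit of ATP synthase, at 1.79 ± 0.039 and 1.59 ± 0.037. The remaining gene of that ring subunit, ATP5MC2, fell to 410.2 ± 12.4 TPM in LF3, against 633 ± 8.23 TPM in CON (-0.62 ± 0.033). All 4 genes of complex II, which contains no product of the mitochondrial ribosome, were higher with a median of 0.61, and 3 were higher and 1 lower under the scalings.

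The cytosolic ribosome moved the other way. Of 83 tested cytosolic ribosomal protein genes 5 were higher and 74 lower, with a median of -0.42, which was 3 and 79 with -0.70 after median-ratio scaling and 20 and 51 with -0.19 after quantile normalization. They summed to 192684 ± 4383 TPM in LF3 and 264093 ± 1891 TPM in CON. The mitochondrial ribosomal protein genes summed to 5.08 ± 0.0656% of that in LF3 and 1.92 ± 0.0346% in CON, a ratio within each library that 1 scaling factor per library does not alter. Because TPM are shares of a fixed total, a lower share of such abundant genes raises all other shares, and the part of this in the members' rise was not tested.

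**Figure D4:**
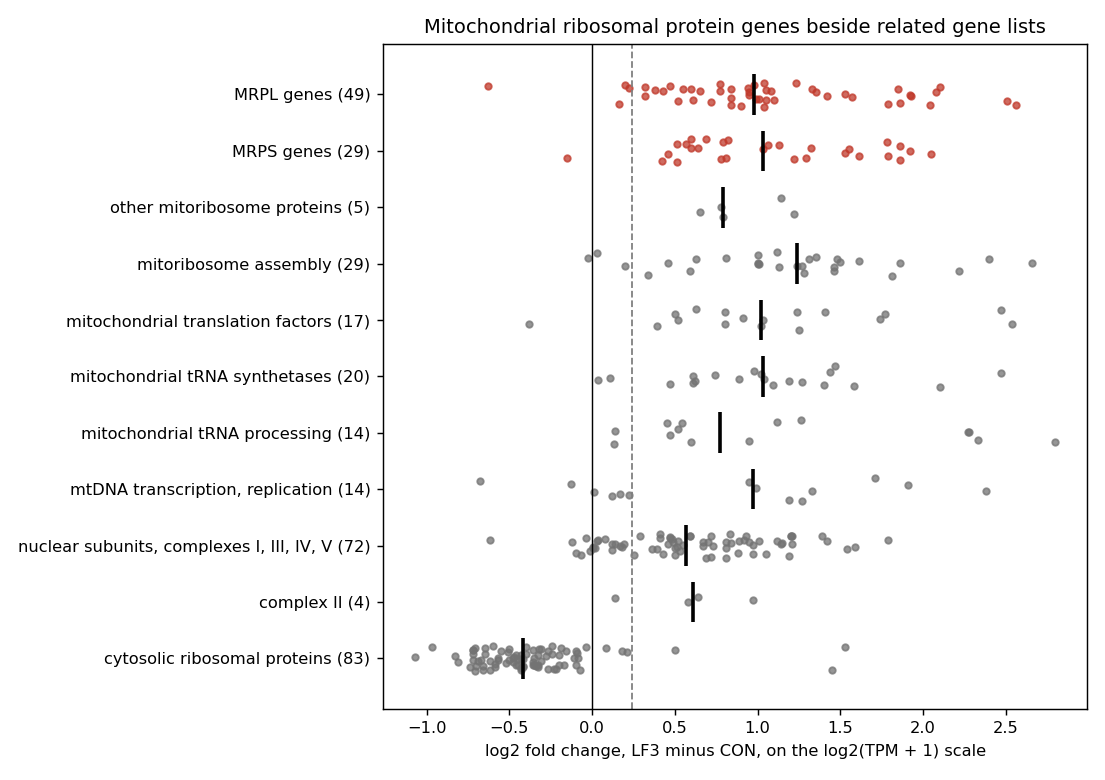
Log2 fold change (LF3 minus CON, log2(TPM + 1) scale) of each tested gene in the MRPL and MRPS sets (red) and in related lists (grey), with the number of genes in brackets, a black bar for the median and a dashed line for the median of all tested genes, 0.24. The mitochondrial translation lists have medians between 0.77 and 1.24, the nuclear respiratory subunits 0.57 and the cytosolic ribosomal proteins -0.42.

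Among 8 tested transcription regulators tied to nuclear genes of mitochondria, 6 were higher (75%, against 53.2% of all tested genes) and 0 lower as deposited. Under both scalings 6 were higher and 2 lower. The coactivator gene PPARGC1B was low in both groups, at 3.71 ± 0.139 TPM in LF3 and 0.55 ± 0.052 TPM in CON (1.60 ± 0.094). The coactivator gene PPRC1 stood at 1.29 ± 0.065, ESRRA, an orphan nuclear receptor, at 1.34 ± 0.044, and NRF1 at 0.74 ± 0.074. MYC had 64.3 ± 3.65 TPM in LF3 and 27.1 ± 0.76 TPM in CON (1.21 ± 0.054). It was at 0.95 after median-ratio scaling and 0.85 after quantile normalization. The 2 subunits of GABP, whose ETS core is capitalised in the promoters above, differed, with GABPB1 at 28.7 ± 0.603 TPM in LF3 and 16.6 ± 0.606 TPM in CON (0.75 ± 0.054) and GABPA at 20.3 ± 2.16 TPM in LF3 and 22.2 ± 1.52 TPM in CON (-0.12 ± 0.082, adjusted p = 0.185, limma). YY1 had 30.9 ± 0.845 TPM in LF3 and 28.8 ± 0.899 TPM in CON (0.10 ± 0.051, adjusted p = 0.086). GABPA and YY1 were the 2 not called as deposited, and both were called lower under both scalings. GABPA was at -0.38 after median-ratio scaling and -0.43 after quantile normalization, and YY1 at -0.16 and -0.24.

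Several members sit head to head with another gene. A gene starting within 1000 bases on the opposite strand and running the other way was listed for 17 members, and MRPL46 and MRPS11, at 1.35 ± 0.073 and 1.06 ± 0.08, are such neighbours of each other. Of the other 15 neighbours 11 were higher, 2 lower and 2 not called (73.3% higher, against 53.2% of all tested genes), with a median of 1.26. MRPS12 neighbours SARS2, the mitochondrial seryl-tRNA synthetase gene (1.44 ± 0.066), and MRPL32 neighbours the proteasome gene PSMA2 (1.46 ± 0.036). The neighbour of MRPL49, FAU, which encodes a cytosolic ribosomal protein, fell (log2 fold change -0.26 ± 0.034), while MRPL49 stood at 0.52 ± 0.036.

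Some values may contain reads of other loci. In GENCODE v29, 19 members share exon bases with another gene of the table, 10 of them over more than 10% of their exon bases, and how strand was handled was not given in the sources used here. Exons of MRPS18C are shared over 78.9% with ABRAXAS1 on the opposite strand, which fell (-0.78 ± 0.086), and those of MRPS18A over 56.9% with RSPH9, which stood at 0.157 ± 0.0493 TPM in LF3 and 0.23 ± 0.0819 TPM in CON. MRPS24 shares 77% with the read-through gene URGCP-MRPS24, listed at 0.607 ± 0.591 TPM in LF3 and 0.123 ± 0.214 TPM in CON. Other overlapping genes were higher in LF3. MRPL51 shares 29.9% with NCAPD2 (1.25 ± 0.038) and MRPS12 shares 21.5% with SARS2 (1.44 ± 0.066), both on the opposite strand. MRPL34 shares 16.5% with ABHD8 on the opposite strand, which fell (-0.47 ± 0.072). The part of shared reads in the members' values was not tested. RefSeq names 106 pseudogenes of 42 members, and with reads of 50 bases their near-identical copies leave the values of those members uncertain to an extent that was not tested.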

How the data were processed

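Total RNA was extracted with Trizol, and circular libraries amplified as nanoballs were sequenced as single reads of 50 bases on a BGISEQ500, per the labels' protocols. The deposited table gives TPM for each gene in each library, without counts. Named in the submitters' processing notes are HISAT, Bowtie2 and GRCm38.p6, a mouse build, although the gene identifiers are human, and the reference actually used for alignment was not given in the sources used here. Genes averaging 1 TPM or more were tested (12195, leaving 5085) on log2(TPM + 1) with limma 3.58.1 in R 4.3.3 (variance trend, two-sided, Benjamini-Hochberg, threshold 0.05, replicate number not in the model), which was tested on simulated data. With 3 against 3, an exact permutation test of 1 gene cannot go below 0.1, so none is given. Tables were joined with pandas 2.3.3 in Python 3.11.15. Alternatives were a filter of 5 TPM or none, pseudocounts of 0.5 and 0.1, 2 scalings, limma settings, a replicate block and leaving out each library. The members and lists were chosen with earlier results of these data known. Named genes are the 6 highest and 6 lowest changes of each subunit, members called lower or dependent on scaling, a set of members of known role, and up to 3 called genes with the largest change of each other list; further genes named beside them were chosen after their values were seen. Promoter letters come from RefSeq (GRCh38.p14) and exon overlaps from GENCODE v29.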

Additional observations from a re-analysis of the deposited data

How the results depend on the processing

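All 78 member calls and directions held under 14 of the 16 alternatives, those that changed the pseudocount, the filter, the limma settings or the replicate block, or left out a library. Of the members, 69 kept theirs under all 16, and the other 9 changed under a rescaling of the libraries. Median-ratio scaling gave a median member change of 0.71 and a ratio of summed TPM of 1.59, turned MRPL48 to -0.10, MRPL53 to -0.068 and MRPL54 to -0.049, and brought the median of all tested genes to -0.0055. Quantile normalization gave a median of 0.68 and 2 large-subunit members called lower, and turned MRPL48 to -0.20, MRPL53 to -0.097, MRPL54 to -0.089 and MRPL2 to -0.0081. The cause of these shifts was not tested. Leaving out each library in turn gave members' medians of 0.96 to 1.02 and ratios of summed TPM of 1.91 to 1.94. LF3 and CON libraries with the same number had deviations correlated at 0.0476, 0.106 and 0.16, against -0.17 to 0.0737 for different numbers. Of the 6 libraries, 5 correlated best with their own number, and whether same-numbered libraries share a batch was not tested. With that number as a replicate block, the members gave 76 higher and 2 lower, as without it, and their median was 0.98. The TPM keep no depth, so counting error could not be given for the low members.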

Other observations

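Mitochondrial protein quality control, which folds imported proteins and removes damaged ones, showed 10 of 10 listed proteases and chaperones higher in LF3 (53.2% of all tested genes), with a median log2 fold change of 1.12. The count was 7 higher and 0 lower after median-ratio scaling and 7 and 1 after quantile normalization. HSPE1, the partner of the matrix chaperonin, had 1348.11, 1340.36 and 1295.48 TPM in LF3 and 238.59, 242.24 and 238.39 TPM in CON (2.46 ± 0.03, adjusted p = 5.34e-13, limma), with the groups far apart. Its chaperonin HSPD1 had a log2 fold change of 1.50 ± 0.043, and AFG3L2, an inner membrane protease that in mice and yeast processes the ribosomal protein MRPL32, at 146 ± 2.89 TPM in LF3 and 49 ± 0.932 TPM in CON (1.56 ± 0.039). MRPL32 itself stood at 207 ± 14.1 TPM in LF3 and 121 ± 4.2 TPM in CON (0.77 ± 0.051).

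Abundant proteins often used as markers of mitochondrial content did not all move the same way. Of 11 tested, 9 were higher (81.8%, against 53.2% of all tested genes) and 1 lower, with a median of 0.81 (9 and 2 under both scalings). CYCS (cytochrome c) stood at 1.61 ± 0.05 and the channel gene VDAC3 at 1.59 ± 0.043. VDAC2 had 412 ± 6.78 TPM in LF3 and 436 ± 13.4 TPM in CON (SD, n = 3 each; log2 fold change -0.082 ± 0.034, adjusted p = 0.0399, limma), and the import receptor gene TOMM20 had 253 ± 6.37 TPM in LF3 and 266 ± 7.98 TPM in CON (-0.072 ± 0.036, adjusted p = 0.0878).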
